A study of Mus musculus with 6 samples.

Results

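Thyroid hormone acts on muscle through 2 nuclear receptor genes, Thra and Thrb, and the transcripts described here are those of the receptors, their partners and the proteins that bring, keep, activate or inactivate the hormone. The set held 9 genes, found by their symbols among the 74693 features of the deposited table (17034 with values): the receptors Thra and Thrb, the retinoid X receptors Rxra, Rxrb and Rxrg, the transporter gene Slc16a10, the deiodinases Dio2 and Dio3, and Crym. All 9 had values in every library.

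The RNA came from gastrocnemius, a mixed hindlimb muscle, of male mice aged 8 weeks, with 3 mice per genotype by the series design. The group labelled TRa_mKO carried floxed copies of Thra (Thra fl/fl) and a Myf5-Cre transgene, which is active in early myogenic cells; the WT group consisted of littermates with the same floxed copies and no Cre, so both groups carried the floxed allele. No drug or diet was given, and the labels assign every library to batch 1. Blood vessel, nerve, blood and connective tissue cells lie outside the myogenic lineage and are part of a whole muscle, so their Thra transcripts would be counted in both groups. Libraries held 12390527 to 14488500 counts, and 3 counts corresponded to 0.198 to 0.242 CPM (counts divided by the effective library size in units of 1e6, with TMM scaling, the trimmed mean of M values of edgeR).

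The hormone leaves the thyroid mainly as thyroxine, enters cells through membrane transporters, and is turned into the active triiodothyronine by deiodinase 2 or into inactive products by deiodinase 3. Inside the nucleus the receptors bind DNA, commonly as heterodimers with a retinoid X receptor, at response elements built from the hexamer AGGTCA, and they repress or activate target genes depending on whether hormone is bound. In muscle this pathway is known to act on contractile protein isoforms, calcium pumps and energy metabolism.

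Promoter windows of 300 bases (250 before and 50 after an annotated transcript start, RefSeq GRCm38.p6) were matched for 7 of the 9 genes, not for Thra and Crym, and gave 11 windows. The hexamer AGGTCA, read on both strands (TGACCT on the other), was present in 3 of the 11 windows, against 16.3% of the 32851 windows of the table. The windows below are shown because Thrb was the gene of the set that passed the test, and because the others are the receptor partner windows with the hexamer. Capitals mark the hexamer on either strand.
Thrb, chr14:17660710-17661009, plus strand: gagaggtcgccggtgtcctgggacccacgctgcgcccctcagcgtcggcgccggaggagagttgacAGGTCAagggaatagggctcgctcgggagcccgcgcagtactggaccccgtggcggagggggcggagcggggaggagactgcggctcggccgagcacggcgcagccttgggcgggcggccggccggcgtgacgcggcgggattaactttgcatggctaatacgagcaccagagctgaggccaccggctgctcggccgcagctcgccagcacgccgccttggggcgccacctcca
Thrb, chr14:17981394-17981693, plus strand: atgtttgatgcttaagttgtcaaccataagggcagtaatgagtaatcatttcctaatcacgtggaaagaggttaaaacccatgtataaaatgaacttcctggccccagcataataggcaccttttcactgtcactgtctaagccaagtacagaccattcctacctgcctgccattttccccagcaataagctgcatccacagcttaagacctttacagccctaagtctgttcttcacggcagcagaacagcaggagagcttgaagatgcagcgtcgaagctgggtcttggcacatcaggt
Rxra, chr2:27709042-27709341, plus strand: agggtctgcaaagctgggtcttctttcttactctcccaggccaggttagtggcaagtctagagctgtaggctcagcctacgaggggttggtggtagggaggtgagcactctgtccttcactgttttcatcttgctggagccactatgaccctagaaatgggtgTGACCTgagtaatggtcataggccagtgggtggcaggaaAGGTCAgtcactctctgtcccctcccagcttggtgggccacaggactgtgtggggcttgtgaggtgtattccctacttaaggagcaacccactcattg
Rxrg, chr1:167618015-167618314, plus strand: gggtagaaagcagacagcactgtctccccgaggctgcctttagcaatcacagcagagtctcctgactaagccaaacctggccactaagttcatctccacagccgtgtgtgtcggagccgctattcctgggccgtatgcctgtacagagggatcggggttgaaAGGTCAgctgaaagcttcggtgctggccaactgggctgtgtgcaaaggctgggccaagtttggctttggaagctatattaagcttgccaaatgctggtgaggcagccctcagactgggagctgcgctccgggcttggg

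In the first Thrb window the hexamer began 184 bases upstream of the start, and the second Thrb window held none. The Rxra window held it in both orientations, beginning 87 and 48 bases upstream, and the Rxrg window held it once, beginning 88 bases upstream. The direct repeat of 2 such hexamers with 4 bases between them, a classical thyroid hormone response element, was in 0 of the 11 windows and in 5 windows (0.0152%) of the table. The GC content of the 2 Thrb windows was 72.7% and 46.0%.

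The design sets muscle labelled TRa_mKO against muscle of WT littermates. Of the 9 genes, 8 passed the filter on low counts and were tested together with all other genes; Dio3 did not. Thrb fell, 0 rose, and 7 of the 8 did not pass the test (edgeR quasi-likelihood test, Benjamini-Hochberg adjusted p below 0.05, 13118 genes tested). The share called, 1 of 8 (12.5%), stands beside 4.17% of all genes tested, of which 2.52% were higher and 1.65% lower in TRa_mKO. Libraries of the genotypes did not overlap for 3 of the 8 genes (Thra and Crym higher, Thrb lower), against 23.2% of all genes tested (13.2% higher, 10.1% lower). The median log2 fold change of the 8 was 0.14, against 0 over all genes tested.

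**Figure D1:**
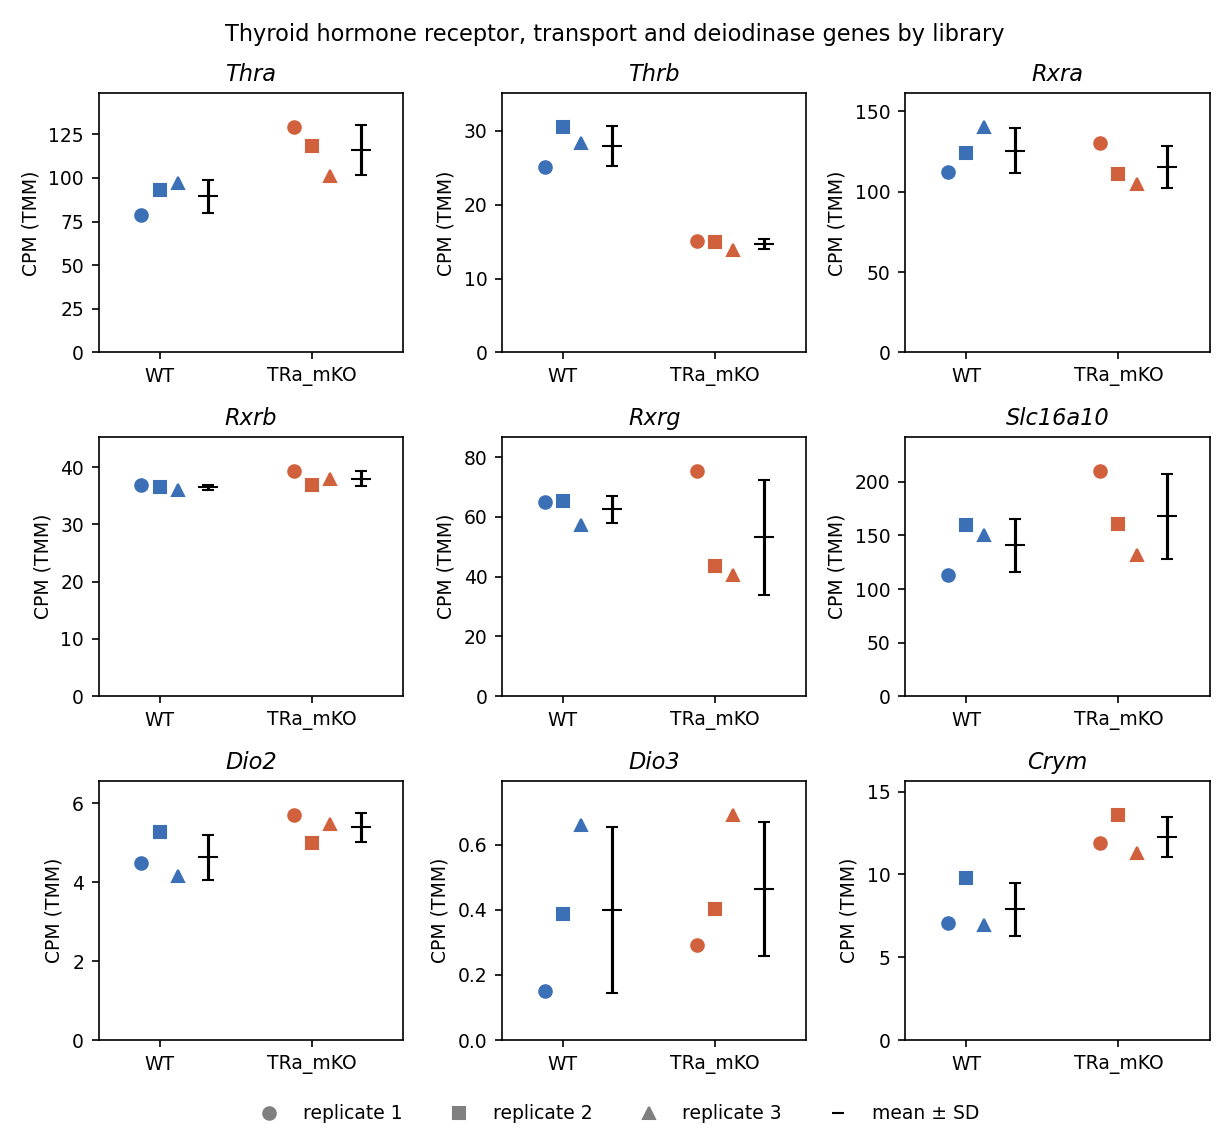
TMM-scaled CPM of the 9 genes in each library (y axis from 0). Point shapes give the replicate number, by which samples were not paired in the test, and black bars give mean ± SD, n = 3. Thrb lay at 25.1 to 30.5 CPM in WT and 13.9 to 15.1 CPM in TRa_mKO, and Rxrg of TRa_mKO replicate 1 (75.3 CPM) stood above the other TRa_mKO libraries (43.6 and 40.4 CPM).

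The targeted gene, Thra (gene ID 21833), encodes thyroid hormone receptor alpha and had 78.8, 92.8 and 96.8 CPM in the WT libraries, against 129, 118 and 101 CPM in those labelled TRa_mKO. Every library labelled TRa_mKO thus lay above every WT library, by a narrow margin between TRa_mKO replicate 3 and WT replicate 3. The log2 fold change was 0.37 (SE 0.12, 95% confidence interval 0.11 to 0.63) and did not pass the edgeR test (adjusted p = 0.117). A lower gene-level count was therefore not seen, and this count is no check of the deletion or of the labels, because it adds all exons and the sources used here do not name the floxed exons. Transcripts that lack the floxed exons would still be counted.

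Thra also had fractional counts, whose origin the sources used here do not give. Its 3′ end overlaps Nr1d1, a circadian repressor gene on the opposite strand. Nr1d1 stood at 250, 367 and 363 CPM in the WT libraries and at 433, 343 and 296 CPM in those labelled TRa_mKO (adjusted p = 0.775). The lowest value of both genes was in WT replicate 1 and the highest in TRa_mKO replicate 1. Whether reads of Nr1d1 were counted for Thra was not tested. Without WT replicate 1 the log2 fold change of Thra was 0.28 (adjusted p = 0.326), and without TRa_mKO replicate 1 it was 0.29 (adjusted p = 0.217).

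Thrb (gene ID 21834), which encodes thyroid hormone receptor beta, was counted at 25.1, 30.5 and 28.4 CPM in WT, against 15.1, 15.0 and 13.9 CPM in TRa_mKO. The 3 libraries labelled TRa_mKO were close to each other and well below the lowest WT library. The means were 28 ± 2.7 CPM in WT and 14.7 ± 0.659 CPM in TRa_mKO (SD, n = 3), so Thrb was 1.91-fold higher in WT (log2 fold change -0.93, SE 0.10, 95% confidence interval -1.16 to -0.70, edgeR adjusted p = 0.00125). In bulk muscle, fewer cells of a kind and less RNA per cell cannot be told apart. The call held in all 14 alternative fits in which Thrb was tested, with log2 fold changes from -1.01 to -0.87 and adjusted p-values up to 0.00888. Thrb had fractional counts as well: 2 libraries had fractional values, and rounding moved them by less than 1 count.

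The balance of the receptor transcripts was measured within each library, where scaling between libraries has no part. The Thra count in it adds all exons, so transcripts that lack the floxed exons would be included. The shares, ratios and sums below are therefore no measure of intact Thra transcripts. Per kilobase of the longest annotated transcript, Thrb made up 11.2%, 11.5% and 10.4% of the sum of Thra and Thrb in WT and 4.43%, 4.80% and 5.17% in TRa_mKO. The genotypes did not overlap, and the mean share was lower by 6.23 percentage points in TRa_mKO (11.0 ± 0.58% against 4.80 ± 0.371%, SD, n = 3; exact two-sided permutation p = 0.1, the smallest that 3 against 3 samples allow). Without division by length, the mean Thrb share was 23.9% in WT and 11.3% in TRa_mKO. The ratio of Thra to Thrb per kilobase was 7.69 to 8.63 in WT and 18.3 to 21.6 in TRa_mKO. Their sum was 36.2, 42.8 and 44.1 CPM per kilobase in WT and 54.9, 50.4 and 43.4 CPM per kilobase in TRa_mKO, so that the summed levels overlapped while the shares did not.

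**Figure D2:**
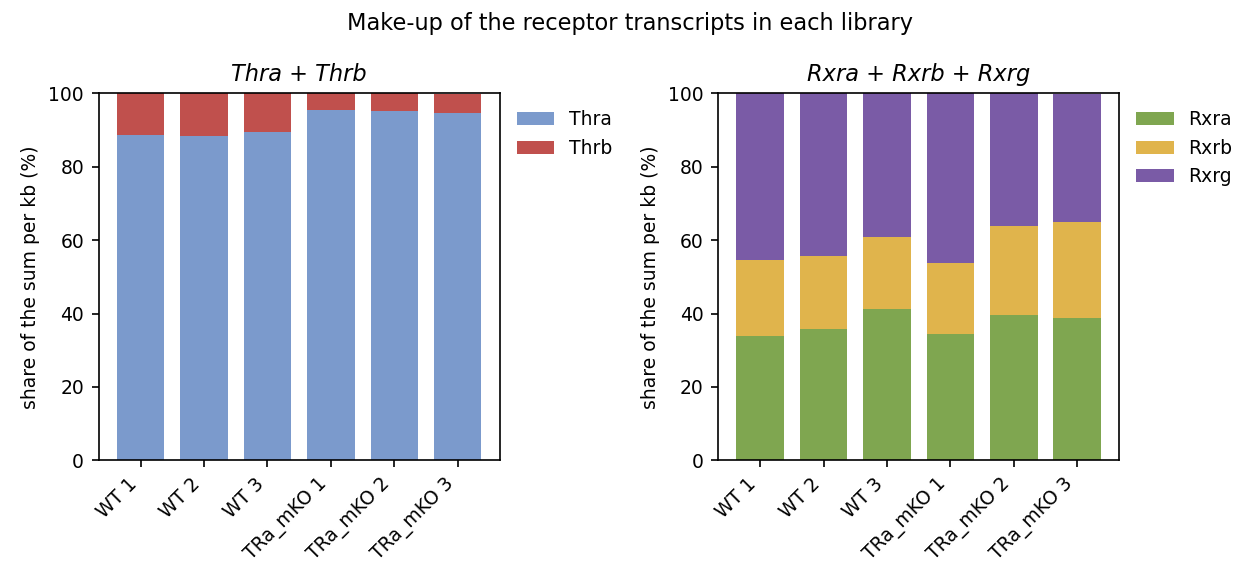
Share of each gene (y axis, % of the sum of CPM per kilobase of the longest transcript) in the 6 libraries, for the thyroid hormone receptors on the left and the retinoid X receptors on the right. The Thrb share was 10.4% to 11.5% in WT and 4.43% to 5.17% in TRa_mKO, while the shares of the retinoid X receptors overlapped between genotypes.

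The genes most like Thrb over the 6 libraries, by Pearson correlation of log2 CPM among 10362 genes with a mean of at least 5 CPM, were Jak2, Vldlr and Them6 (r = 0.996, 0.996 and 0.994, a description over 6 libraries that share the genotype difference). Jak2, a cytokine receptor kinase, was at 94.5, 132 and 112 CPM in WT, against 47.5, 46.1 and 46.3 CPM in TRa_mKO. Vldlr, a lipoprotein receptor, was at 305, 349 and 325 CPM in WT, against 153, 164 and 144 CPM in TRa_mKO. Them6 was at 11.8, 13.7 and 12.1 CPM against 7.54, 7.91 and 7.40 CPM. Each of these had its highest WT value in replicate 2, as Thrb did, and no overlap between genotypes, traits that their choice by likeness to Thrb favours.

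The retinoid X receptors are the common dimer partners of both thyroid hormone receptors. Rxra (gene ID 20181), the broadly expressed form, was at 112, 124 and 140 CPM in WT, against 130, 111 and 105 CPM in TRa_mKO. These libraries overlapped (log2 fold change -0.12, 95% confidence interval -0.37 to 0.13, edgeR adjusted p = 0.641). Rxrb (gene ID 20182) was the steadiest gene of the set, at 36.8, 36.6 and 36.0 CPM in WT, against 39.3, 36.8 and 37.9 CPM in TRa_mKO, a coefficient of variation of 1.22% and 3.32%. Its log2 fold change was 0.06 (95% confidence interval -0.11 to 0.23, adjusted p = 0.745).

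Rxrg (gene ID 20183), the form known from skeletal muscle, heart and brain, was at 64.8, 65.4 and 57.3 CPM in WT, against 75.3, 43.6 and 40.4 CPM in TRa_mKO. The WT libraries were alike, while TRa_mKO held both the highest and the lowest library of the 6, with a coefficient of variation of 36.3% against 7.22% in WT. Over all libraries Rxrg did not pass (log2 fold change -0.23, SE 0.23, 95% confidence interval -0.77 to 0.30, edgeR adjusted p = 0.663). Without TRa_mKO replicate 1 it was lower in TRa_mKO by this test (log2 fold change -0.57, adjusted p = 0.0135), so its call rests on that single library. The highest library of Rxrg was also the highest for Thra, Rxrb, Slc16a10 and Dio2.

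Per kilobase, Rxrg gave 45.4%, 44.2% and 39.1% of the retinoid X receptor transcripts in WT and 46.3%, 36.0% and 34.8% in TRa_mKO (exact permutation p = 0.4). Rxrb gave 20.7%, 19.9% and 19.7% in WT and 19.4%, 24.4% and 26.2% in TRa_mKO (exact permutation p = 0.4), and Rxra gave 33.9% to 41.2% and 34.3% to 39.6% (exact permutation p = 0.9). For each of these genes the shares overlapped between genotypes. Which of them had the largest share depends on the length. Without division by length, Rxra gave mean shares of 55.8% in WT and 56.2% in TRa_mKO, and Rxrg 27.9% and 25.2%. The summed retinoid X receptor level was 67.7, 70.1 and 69.4 CPM per kilobase in WT and 77.1, 57.4 and 55.0 CPM per kilobase in TRa_mKO. Relative to the summed thyroid hormone receptors it was 1.58 to 1.87 times as high in WT and 1.14 to 1.40 times as high in TRa_mKO, without overlap. The size of this ratio depends on the transcript length chosen, and its Thra part again adds all exons, floxed or not. With the median length, means over the 6 libraries were 157 (Thra) and 27.0 (Thrb) CPM per kilobase. Those of Rxra, Rxrb and Rxrg were 61.1, 42.2 and 31.5. Summed, the retinoid X receptors then lay below the thyroid hormone receptors.

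Slc16a10 (gene ID 72472) encodes a transporter of aromatic amino acids and thyroid hormones. It was at 113, 160 and 150 CPM in WT, against 210, 161 and 132 CPM in TRa_mKO. The genotypes overlapped, with TRa_mKO replicate 1 the highest and WT replicate 1 the lowest library (log2 fold change 0.25, SE 0.18, 95% confidence interval -0.18 to 0.67, edgeR adjusted p = 0.545).

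The deiodinases are selenoenzymes. Dio2 (gene ID 13371), which makes triiodothyronine inside the cell, was at 4.49, 5.27 and 4.16 CPM in WT, against 5.71, 5.0 and 5.47 CPM in TRa_mKO, that is 60 to 68 and 62 to 79 counts per library. The values were low and overlapped (log2 fold change 0.22, 95% confidence interval -0.15 to 0.59, edgeR adjusted p = 0.538). Dio3 (gene ID 107585), which inactivates the hormone, was near absent, with 2, 5 and 10 counts in the WT libraries and 4, 5 and 10 in those labelled TRa_mKO, or 0.150 to 0.660 and 0.293 to 0.692 CPM. The summed counts were 17 in WT (exact 95% Poisson interval 9.9 to 27.2) and 19 in TRa_mKO (11.4 to 29.7), intervals that cover counting error only. A difference in Dio3 was not detectable at this depth, and without the filter on low counts its adjusted p was 0.925 (edgeR, log2 fold change 0.19).

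Crym (gene ID 12971) encodes mu-crystallin, a cytosolic protein that binds thyroid hormone. It was at 7.04, 9.76 and 6.93 CPM in WT, against 11.9, 13.6 and 11.3 CPM in TRa_mKO. Each library labelled TRa_mKO was above each WT library, with means of 7.91 ± 1.6 and 12.3 ± 1.2 CPM (SD, n = 3). The 1.55-fold difference (log2 fold change 0.64, SE 0.16, 95% confidence interval 0.28 to 0.99) missed the threshold in the edgeR fit (adjusted p = 0.0568). It passed with DESeq2 (adjusted p = 0.0344), without the filter on low counts (0.0387) and without WT replicate 2 (0.025), and the range over all alternatives was 0.025 to 0.221.

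**Figure D3:**
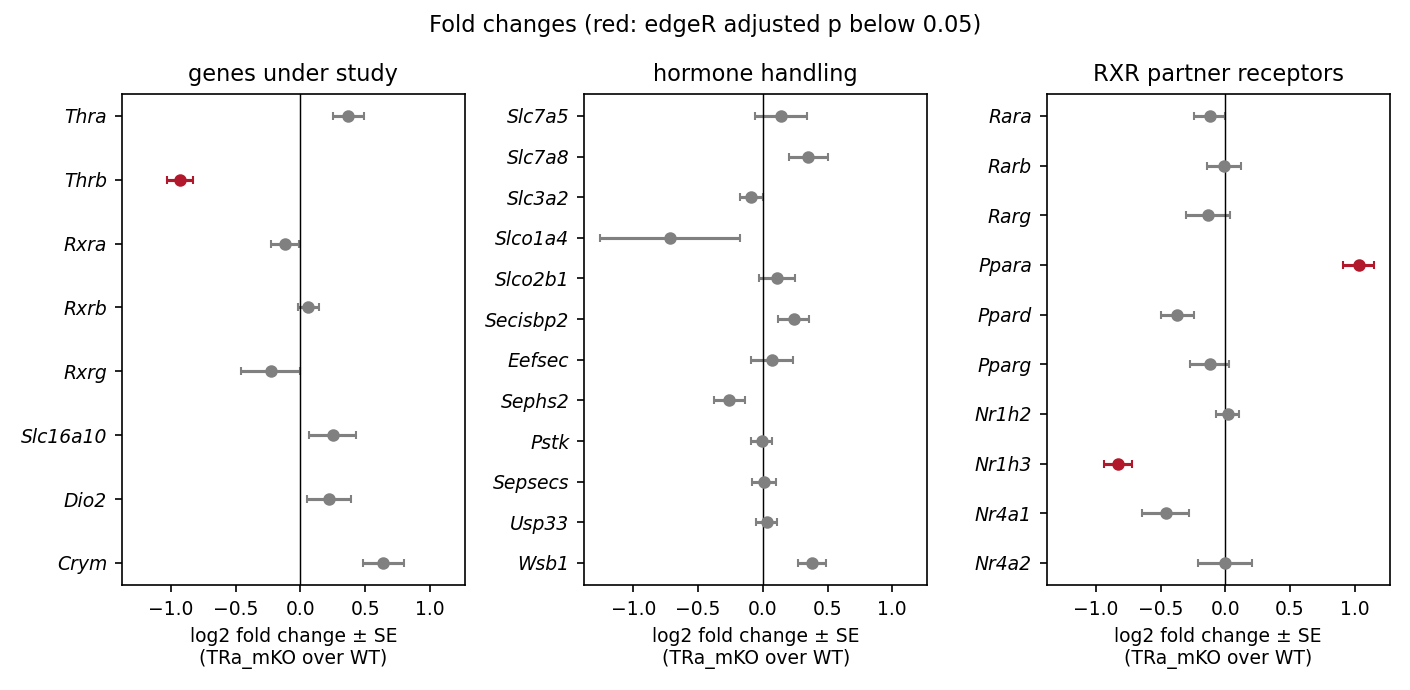
Log2 fold change, TRa_mKO over WT, with its standard error for tested genes of the set (left), of hormone handling (middle) and of nuclear receptors that pair with a retinoid X receptor (right); red marks an edgeR adjusted p below 0.05. Thrb (-0.93), Ppara (1.03) and Nr1h3 (-0.83) are the genes in red.

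Levels of different genes were compared per kilobase of the longest annotated transcript. Over the 6 libraries the order was Thra (41.8 ± 7.31 CPM per kilobase, SD), Slc16a10 (28.6 ± 6.06), Rxrg (27.4 ± 6.42), Rxra (24.5 ± 2.68), Rxrb (14.2 ± 0.454), Crym (3.77 ± 1.01), Thrb (3.44 ± 1.21), Dio2 (0.863 ± 0.102) and Dio3 (0.212 ± 0.104). Ranges of neighbours overlapped among Thra, Slc16a10, Rxrg and Rxra, and between Crym and Thrb, while Rxra, Rxrb and Crym were apart, as were Thrb, Dio2 and Dio3. Within libraries, Thra was above Slc16a10 in 6 of 6. With this length, part of the order turned with genotype. Thrb was above Crym in every WT library (means of 4.52 and 2.95 CPM per kilobase). It was below Crym in every TRa_mKO library (2.37 and 4.58). Rxrg was above Slc16a10 in WT replicates 1 and 2 only (WT means of 29.6 and 26.2 CPM per kilobase) and below it in every TRa_mKO library (25.2 and 31.0). Among 12928 tested genes with a length, 88.7% lay below Thra in WT, 83.8% below Rxra, 41.2% below Thrb, 11.6% below Dio2 and 1.57% below the level of Dio3.

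The transcript length chosen weighs on this order. With the median length of the annotated transcripts, Thrb stood at 27.0 and Thra at 157 CPM per kilobase, and Rxra and Rxrb ranked above Rxrg and Thrb above Crym. Thra stayed first, Slc16a10 second, and Dio2 and Dio3 last. The turns of the order with genotype were of the longest transcript only. With the median length, Thrb (27.0) lay well above Crym (4.97), and Slc16a10 (85.0) well above Rxrg (31.5 CPM per kilobase, means over the 6 libraries). Which transcripts of these genes are made in this muscle cannot be read from gene-level counts.

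**Figure D4:**
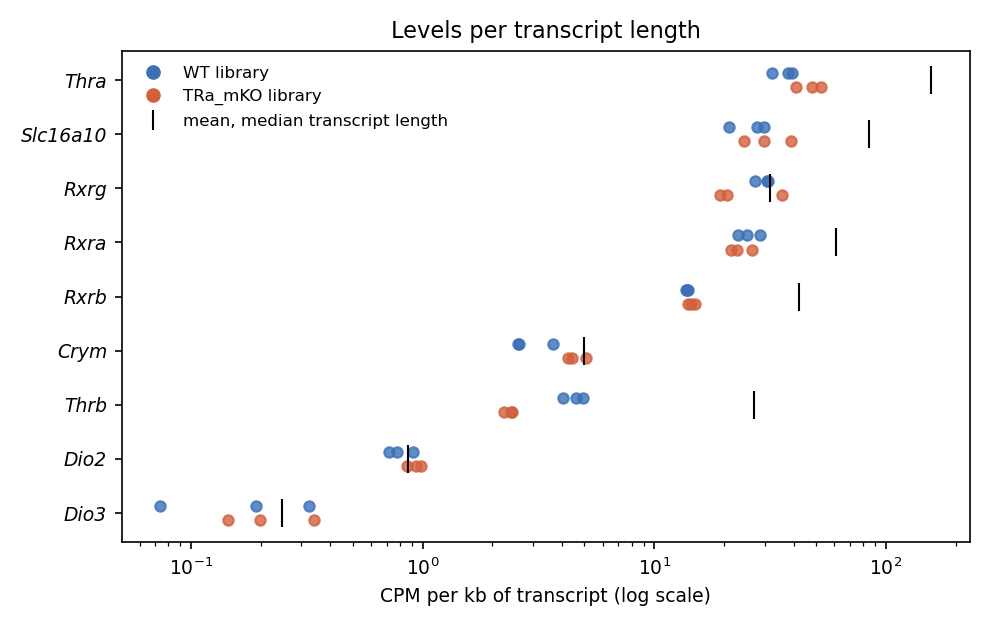
CPM per kilobase of the longest transcript (x axis, log scale) of each gene in the WT (blue) and TRa_mKO (orange) libraries; black ticks give the mean over 6 libraries with the median transcript length instead. Means with the longest transcript ran from 41.8 for Thra to 0.212 for Dio3, and the tick of Thrb (27.0) lay far to the right of its points.

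Other genes of hormone transport, deiodination and selenoprotein synthesis were taken from a list, of which 19 are reported; 17 had values and 12 were tested. None of the 12 passed the edgeR test, beside 2.52% higher and 1.65% lower of all genes, and their median log2 fold change was 0.05. At an unadjusted p below 0.05, 2 were higher in TRa_mKO (Slc7a8 and Wsb1) and 0 lower, beside 10.2% higher and 7.72% lower of all genes at that p, and DESeq2 and limma-voom called 0 of the 12.

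Slc7a8, an amino acid transporter that also carries thyroid hormones, was at 15.9, 15.4 and 11.6 CPM in WT, against 21.2, 17.0 and 16.1 CPM in TRa_mKO (adjusted p = 0.271). Wsb1, part of a ubiquitin ligase that acts on deiodinase 2, was at 63.8 ± 5.25 CPM in WT and 83.3 ± 11.3 CPM in TRa_mKO (SD, n = 3; edgeR adjusted p = 0.0942), and Sephs2, of selenium metabolism, at 35.7 ± 4.42 and 29.8 ± 3.76 CPM (adjusted p = 0.285). Secisbp2, which binds selenoprotein messages, was at 17.3 ± 1.65 and 20.4 ± 2.42 CPM (SD, n = 3; edgeR adjusted p = 0.341). The genotypes did not overlap for Slc7a8 and Wsb1 and overlapped for Sephs2 and Secisbp2. The third deiodinase gene, Dio1, had 0 counts in 5 libraries and 1 count in TRa_mKO replicate 2. Slco1c1, a thyroxine transporter of brain vessels, had 2 to 9 counts per library.

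Other nuclear receptors that pair with a retinoid X receptor were taken from a list of 14, of which 10 were tested; 1 rose and 1 fell, beside 2.52% and 1.65% of all genes tested, and the median log2 fold change was -0.12. Ppara (gene ID 19013), a receptor for fatty acids, was at 11.1, 11.0 and 10.3 CPM in WT, against 19.2, 24.0 and 23.0 CPM in TRa_mKO (log2 fold change 1.03, SE 0.12, edgeR adjusted p = 0.0013). Nr1h3 (gene ID 22259), an oxysterol receptor, was at 17.5, 17.0 and 18.9 CPM in WT, against 9.23, 10.7 and 10.2 CPM in TRa_mKO, 1.78-fold higher in WT (log2 fold change -0.83, SE 0.11, adjusted p = 0.0032). Both calls held when any library was left out (adjusted p up to 0.0119 and 0.0189).

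Ppard and Nr4a1 were lower in every TRa_mKO library and did not pass (log2 fold change -0.37 and -0.46, adjusted p = 0.151 and 0.201). Vdr, the vitamin D receptor gene, did not pass the filter on low counts: it had 1, 2 and 1 counts in the WT libraries and 11, 7 and 17 in those labelled TRa_mKO, which without the filter gave an edgeR adjusted p of 0.0132. Without the filter, 2 members of this list were thus higher. With the filter and 1 library left out, Vdr passed without WT replicate 2 or TRa_mKO replicate 2 (edgeR adjusted p = 0.0422 and 0.0407). It did not pass without WT replicate 1 or WT replicate 3 (0.0722 and 0.0792). Without TRa_mKO replicate 1 or TRa_mKO replicate 3 it was not tested. The retinoic acid receptor genes Rara, Rarb and Rarg had log2 fold changes of -0.12, -0.01 and -0.13 (adjusted p = 0.695 to 0.981).

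Of 30 genes known to respond to thyroid hormone, all tested, 3 rose and 3 fell, beside 2.52% and 1.65% of all genes tested, with a median log2 fold change of 0.08. Hr, a corepressor gene that the receptors induce, was at 90.0, 82.6 and 77.4 CPM in WT, against 7.69, 6.70 and 8.99 CPM in TRa_mKO (edgeR adjusted p = 7.89e-07). Klf9, a transcription factor gene, was at 275, 336 and 337 CPM in WT, against 216, 226 and 224 CPM in TRa_mKO (adjusted p = 0.0283), and Thrsp, a lipogenic regulator, at 28.5, 24.9 and 28.0 CPM and 15.6, 20.0 and 17.9 CPM (0.016). The genes that rose were Cpt1b, of fatty acid import (288 to 357 CPM in WT, 512 to 562 CPM in TRa_mKO), Atp2a2, the slow calcium pump, and Myh2, a fast oxidative myosin. This list was composed with earlier results of these data known, and its direction is not independent evidence. Of the fits that left out 1 library, Klf9 and Myh2 passed only in that without WT replicate 1 (adjusted p up to 0.112 and 0.137 in the others). Thrsp did not pass in those without WT replicate 1 or WT replicate 3 (up to 0.0579), nor Atp2a2 in those without WT replicate 3 or any library labelled TRa_mKO (up to 0.0965). Leaving out 1 library gave 1 to 5 genes higher and 1 to 2 lower, and DESeq2 called 5 higher and 4 lower.

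Muscle and other cell types were measured by their markers in the same libraries. Fast fibre and general muscle genes summed to 163000 to 216000 CPM in WT and 199000 to 226000 CPM in TRa_mKO, as the labelled tissue calls for. Summed markers of 3 other lists were apart between genotypes, and their part in the differences of Thra, Thrb and Crym was not tested. Slow fibre genes summed to 1380 to 3020 CPM in WT and 5320 to 7700 CPM in TRa_mKO, and 5 of 13 were higher and 0 lower, beside 2.52% and 1.65% of all genes tested. That count of 5 became 11 without WT replicate 1 and with DESeq2, and 2 with the replicate number as a block. Without any other library it was 1 (TRa_mKO replicate 2) to 3. Satellite cell markers summed to 50.5 to 58.1 CPM in WT and 63.6 to 68.4 CPM in TRa_mKO. Of these, 1 of 6 was higher (Pax7, edgeR adjusted p = 0.0261), beside 2.52% of all genes tested. The call of Pax7 was lost in 5 of the 6 fits that left out 1 library (adjusted p up to 0.0916, held without WT replicate 2) and with the block. Endothelial markers (0 of 7 called, 1 lower with DESeq2 and without WT replicate 3) summed to 915 to 1110 and 657 to 911 CPM. Summed red cell, adipocyte, Schwann cell, immune and fibroblast markers overlapped between genotypes, with 0 called of 5, 6, 8, 6 and 7 tested (1 fibroblast marker was higher with DESeq2 and without TRa_mKO replicate 1). Among these tested markers, Lyz2 (immune) was lower and Col3a1 (fibroblast) higher in every TRa_mKO library than in every WT library. Schwann cell markers were low in WT replicate 2, at 325 CPM against 1320 and 1270 CPM in the other WT libraries and 510 to 694 CPM in TRa_mKO. Without that library 6 of 8 were called lower in TRa_mKO, beside 182 of all 13296 genes tested in that fit. Red cell genes were highest in WT replicate 1 (1760 CPM) and TRa_mKO replicate 3 (1620 CPM), against 458 to 917 CPM elsewhere; without these 2 libraries the log2 fold change of Thrb was -0.97 (edgeR adjusted p = 0.00717). No marker was at 0 in all libraries.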

How the data were processed

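Polyadenylated RNA was sequenced on the BGISEQ-500 from stranded paired-end libraries, per the labels' protocols. The authors deposited estimated counts of reads per gene, without normalization, per the file headers; 9.65% to 10% of values per library were fractional (tolerance 1e-06), and all were rounded. Trimmomatic 0.39, FastQC 0.11.9, featureCounts and MultiQC 1.12 appear in the submitters' processing notes beside 3 genome builds (GRCm39, mm10 and GRCm38.p6) whose roles are not stated. For the aligner, annotation, strand setting and origin of the fractions, the sources used here give nothing. Every value column belonged to a sample.

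Genes kept by filterByExpr (minimum count 10) were normalized by TMM and tested with the quasi-likelihood test of edgeR 4.0.16 in R 4.3.3 (two-sided, robust, genotype as the factor, 3 against 3 libraries), with Benjamini-Hochberg adjustment over 13118 genes at 0.05. The step was tested on simulated data, where false calls exceeded the share that the threshold allows and small fold changes were often missed. The common biological coefficient of variation was 11.8%. Transcript lengths came from GENCODE M21 and promoter windows from RefSeq GRCm38.p6. Near absent meant a mean below 1 CPM in both genotypes or removal by the filter. Likeness used log2(CPM + 0.5). Permutation tests used scipy 1.17.1. All pairs of libraries differed by more than sampling noise (chi-square per degree of freedom at least 7.42).

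The genes and lists were chosen with earlier results of these data known. Named genes were the 9 members, the called genes of each list with others up to 4 by smallest p, and the 3 genes most like a called member; list genes with a defining role are also given as values, as are Dio1, Slco1c1, Vdr and the retinoic acid receptors, chosen after their values were seen. Alternatives were DESeq2 1.42.0 and its size factors, library size only, other filters, limma-voom (limma 3.58.1), the replicate number as a block, and each library left out. After the data were seen, fits without the most haemoglobin-rich library of each genotype and without genes with fractional counts were added. A gene of the hormone transport list is not reported here.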

Additional observations from a re-analysis of the deposited data

How the results depend on the processing

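The calls of Thrb (called) and of Thra, Rxra, Rxrb, Slc16a10 and Dio2 (not called) held in every alternative run for them, and so did their directions. Crym passed with DESeq2 and without the filter (log2 fold change 0.63 each) and with the replicate number as a block (0.65); with 1 library left out its log2 fold change was 0.55 to 0.81, and that of Rxrg was -0.57 to -0.07. The Rxra share of the retinoid X receptors differed by -0.939 to 2.70 percentage points with 1 library left out and had no stable sign; the cause was not tested. With the median transcript length, levels were 157 (Thra), 85.0 (Slc16a10), 61.1 (Rxra), 42.2 (Rxrb), 27.0 (Thrb) and 4.97 (Crym) CPM per kilobase, which follows from shorter lengths.

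Genes changed numbered 547, 209 (without TRa_mKO replicate 2) to 595 with 1 library left out, 267 without the haemoglobin-rich libraries (fewer samples) and 357 with the replicate number as a block. Same-numbered libraries did not deviate together (r = -0.176, 0.000321 and -0.00565), and no library correlated best with its own number. The numbers thus do not pair the samples. The block left 2 higher and 1 lower of the 30 hormone responsive genes. With library sizes alone, 213 genes were higher and 255 lower (45.5% upward against 60.5%). Depth limits Dio3, Dio1 and Vdr, at 0 to 17 counts per library.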
